A study of Mus musculus with 6 samples.

Results

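The UBR family of ubiquitin ligase genes was examined through 5 genes, Ubr1, Ubr2, Ubr3, Ubr4 and Ubr7, of 53801 genes counted. Ubr3 was chosen by its lower read counts in tumours from sevoflurane-primed cells, so its difference between the groups is given as a description without a test. The other 4 genes were taken by family name, and the question was whether they followed Ubr3 in each of the 6 tumours. The libraries were RNA-seq of total RNA from pieces of tumour that grew after subcutaneous injection of B16-F10 melanoma cells, a line of mouse skin origin, into wild type male C57BL/6J mice aged 10 to 12 weeks. For the SEVO group (n = 3 tumours) the cells were first exposed to the volatile anaesthetic sevoflurane at 2%, in a chamber that was flushed during 30 min and then held for 2 h more, and were injected afterwards. In the CTRL group (n = 3 tumours) the injected cells had no such priming. The mice themselves were hosts of unaltered genotype in both groups, and the tumour pieces hold host cells as well as melanoma cells. The study thawed a fresh cell stock for every experimental group, and no label says whether the tumours of a group came from separate cell cultures. The p-values therefore measure the spread between these tumours. If the CTRL and SEVO cells came from different stocks, a difference between stocks cannot be told apart from priming.

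UBR proteins share the UBR box, a zinc-binding fold that in several of them grips the first amino acid of a protein. In the arginine branch of the N-degron pathway, formerly the N-end rule pathway, an exposed basic or bulky first residue marks a protein for ubiquitylation and for breakdown by the proteasome. Ubr1 and Ubr2 are close relatives that read both kinds of residue, Ubr4 is a very large member that also reads them, Ubr3 was placed in the family by its sequence and does not bind the classical N-degrons, and Ubr7 is a smaller member with a PHD finger that has been linked to histone ubiquitylation.

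The depth per tumour was 723431 to 1348676 reads on genes, which was 2.06% to 4.61% of the uniquely aligned reads. The predicted genes Gm10800 and Gm10801 together took from 1.31% of the counted reads in CTRL 2 to 49.0% in CTRL 1. Levels are given as CPM, the reads of a gene relative to the size of its library after TMM scaling, and levels of different genes were compared only as CPM per kilobase of exon. The melanocyte markers summed to 1254 to 1318 CPM in CTRL and 616 to 1700 CPM in SEVO, with 0 of 8 markers at 0 in any tumour and Dct holding the most reads. Monocytes are also named as the cell type in the labels, but the 5 monocyte and neutrophil markers held only 2 to 35 reads in all per tumour and 5 of the 5 were at 0 in at least 1 tumour.

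Ubr3 lies on the plus strand of chromosome 2 at chr2:69897246-70024013 (GRCm38, gene ENSMUSG00000044308.17), with 9719 exon bases, of which 0 lay opposite an exon of another gene. It was counted 28, 14 and 24 times in CTRL 1 to 3 and 3, 2 and 10 times in SEVO 1 to 3. Every CTRL tumour therefore lay above every SEVO tumour, in reads and after scaling. In CPM, the tumours held 34.0, 17.6 and 27.5 in CTRL against 3.45, 2.15 and 10.9 in SEVO. The means were 26.4 ± 8.28 and 5.50 ± 4.73 CPM (mean ± SD, n = 3 each), a log2 difference of -2.23 or 4.69-fold lower in SEVO. The 2 reads in SEVO 2 carry a 95% Poisson interval of 0.242 to 7.23 reads and the 10 reads in SEVO 3 one of 4.80 to 18.4, which cover counting error only. SEVO 3 was the highest of the SEVO tumours, and without it the log2 difference was -3.13. Non-overlap in this direction was seen for 4.39% of the 7561 genes tested, a figure from the contrast on which Ubr3 was chosen.

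**Figure D1:**
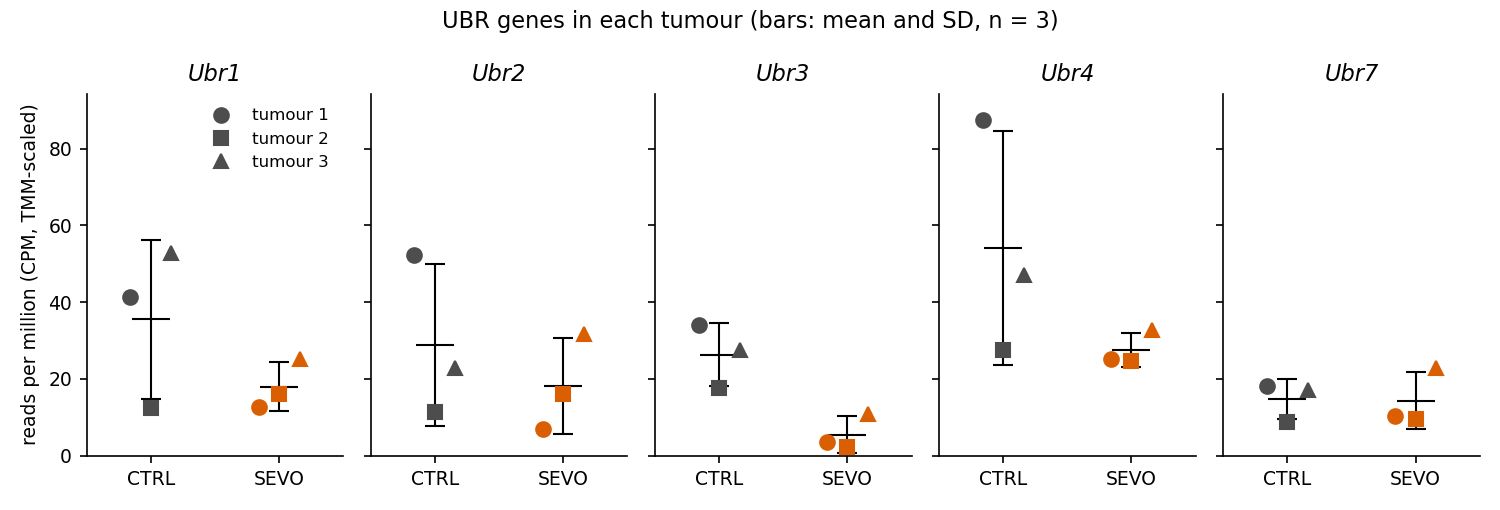
Level of each UBR gene in CPM (vertical axis) in the 3 CTRL (grey) and 3 SEVO (orange) tumours, with symbols for tumour 1, 2 and 3 and bars for mean and SD. The groups are apart for Ubr3 alone, with CTRL from 17.6 to 34.0 and SEVO from 2.15 to 10.9 CPM, while for the other 4 genes at least 1 SEVO tumour lies above at least 1 CTRL tumour.

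None of the other 4 genes was separated in this way. Ubr1, which reads basic and bulky first residues (minus strand, chr2:120860269-120970715, ENSMUSG00000027272.5), was counted 34, 10 and 46 times in CTRL and 11, 15 and 23 times in SEVO. Its scaled levels were 41.3, 12.5 and 52.8 CPM in CTRL and 12.7, 16.1 and 25.1 CPM in SEVO. CTRL 1 and CTRL 3 lay above the SEVO tumours, whereas CTRL 2 was the lowest of the 6 tumours, so the groups overlapped. The means were 35.5 ± 20.7 CPM in CTRL and 17.9 ± 6.42 CPM in SEVO (n = 3 each), and edgeR gave a log2 fold change of -0.98 ± 0.53 (SE) with a Benjamini-Hochberg adjusted p of 0.742 over 7561 genes. The difference was thus within the spread between tumours, with a 95% interval of -2.14 to 0.17. It came to -0.50 without CTRL 3.

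Ubr2 (minus strand, chr17:46928295-47010556, ENSMUSG00000023977.15), the partner of Ubr1 in reading N-degrons and a gene known for its role in male meiosis, was counted 43, 9 and 20 times in CTRL and 6, 15 and 29 times in SEVO. In CPM this was 52.2, 11.3 and 23.0 in CTRL and 6.90, 16.1 and 31.6 in SEVO. SEVO 3 was the second of all tumours and CTRL 2 the fifth, and the groups were interleaved. The means of 28.8 ± 21.1 and 18.2 ± 12.5 CPM (n = 3 each) gave a log2 fold change of -0.66 ± 0.63 (SE; edgeR, adjusted p = 0.767; 95% interval -2.02 to 0.71). Its direction rested on CTRL 1, since the value was 0.09 without that tumour, and it was -0.17 without SEVO 1 and -1.26 without SEVO 3.

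Ubr4, the giant member that works with the ligase Kcmf1 (plus strand, chr4:139352609-139489588, ENSMUSG00000066036.14), carried the most reads of the family in all, at 210, although Ubr1 had more in CTRL 3. It was counted 72, 22 and 41 times in CTRL and 22, 23 and 30 times in SEVO. The scaled levels were 87.4, 27.6 and 47.1 CPM in CTRL and 25.3, 24.7 and 32.7 CPM in SEVO. The SEVO tumours were close to each other and to CTRL 2, and SEVO 3 lay above CTRL 2. The means were 54.0 ± 30.5 and 27.6 ± 4.48 CPM (n = 3 each), with a log2 fold change of -0.97 ± 0.43 (SE) and an adjusted p of 0.742 in edgeR. The unadjusted p of 0.0443 lay under 0.05, as it did with a lower level in SEVO for 3.84% of all genes tested and for 12.3% of the 924 protein-coding genes with an exon length between those of Ubr3 and Ubr4. Ubr4 was the only one of the 4 members taken by name for which this was so. Without CTRL 1 its log2 fold change was -0.44.

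Ubr7 (plus strand, chr12:102757967-102777707, ENSMUSG00000041712.7), the smaller PHD finger member, was counted 15, 7 and 15 times in CTRL and 9, 9 and 21 times in SEVO. The CPM values were 18.2, 8.78 and 17.2 in CTRL and 10.4, 9.66 and 22.9 in SEVO. SEVO 3 held the highest level of the 6 tumours and CTRL 2 the lowest. The group means were 14.7 ± 5.18 and 14.3 ± 7.46 CPM (n = 3 each), a log2 fold change of -0.04 ± 0.60 (SE). With so few reads the 95% interval ran from -1.34 to 1.25, so a change of 2-fold in either direction was not excluded at this depth, and the adjusted p was 0.978 in edgeR. Ubr7 was too low for the filter on low counts and was added to the fit to give its value.

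Per kilobase of exon, the order of the genes in CTRL was Ubr7 with 4.52 ± 1.59, Ubr1 with 3.59 ± 2.10, Ubr4 with 3.002 ± 1.695, Ubr2 with 2.94 ± 2.15 and Ubr3 with 2.71 ± 0.852 CPM per kilobase (mean ± SD, n = 3). Each of these neighbours differed by less than the SD of either. In SEVO the order was Ubr7 with 4.39 ± 2.29, Ubr2 with 1.86 ± 1.27, Ubr1 with 1.81 ± 0.649, Ubr4 with 1.53 ± 0.249 and Ubr3 with 0.566 ± 0.486 CPM per kilobase. There Ubr7 lay above Ubr2, and Ubr3 below Ubr4, by more than the SD of either, while Ubr2 and Ubr1 differed by less than theirs and Ubr1 and Ubr4 by less than the SD of Ubr1. Ubr3 had the lowest mean in both groups, close to its relatives in CTRL and apart from them in SEVO. Its place in SEVO rests on the reads by which Ubr3 was chosen and is a description.

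At an adjusted p under 0.05, 0 of the 4 members besides Ubr3 differed between the groups, and the same held for 0% of all genes tested (0 of 7561 by edgeR and 0 by DESeq2, with 330 genes at an unadjusted p under 0.05 in edgeR, 290 lower in SEVO and 40 higher). The log2 fold change was below 0 for Ubr1, Ubr2 and Ubr4 and near 0 for Ubr7, beside 51.1% of all genes tested and 88.1% of the 924 long protein-coding genes below 0, and that of Ubr7 came out above 0 with library size as the only scaling, without the filter and in DESeq2. Without Ubr3 the median of the members was -0.81, beside -0.02 over all genes and -0.89 over the long protein-coding genes. It was -0.17 without CTRL 1 and -0.44 without SEVO 1. In DESeq2 this median was -0.38 beside -0.55 over all genes fitted, and without the filter -0.19 beside -0.38. With an offset for GC content and exon length it was -0.20 beside -0.10. No member was higher in every SEVO tumour than in every CTRL tumour, as 4.17% of all genes were. Exact two-sided permutation tests on CPM gave p = 0.4 for Ubr1, 0.6 for Ubr2, 0.2 for Ubr4 and 1 for Ubr7, and 3 against 3 tumours cannot give less than 0.1.

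The family was also followed tumour by tumour. Summed over Ubr1, Ubr2, Ubr4 and Ubr7, the level was 199, 60.2 and 140 CPM in CTRL 1 to 3 and 55.2, 66.5 and 112 CPM in SEVO 1 to 3. CTRL 2 stood among the SEVO tumours, below SEVO 2 and SEVO 3, while SEVO 1 was the lowest. The means were 133 ± 69.7 CPM in CTRL and 78.0 ± 30.2 CPM in SEVO (n = 3 each) and the groups overlapped. In CTRL 2, therefore, Ubr3 was at 17.6 CPM, above every SEVO tumour, although the rest of the family was at a SEVO level. In SEVO 3, the rest of the family was well above that of CTRL 2, and Ubr3 was at 10.9 CPM.

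Measured against its own family, Ubr3 made up 14.6%, 22.6% and 16.4% of the reads of the 5 genes in CTRL 1 to 3 and 5.88%, 3.13% and 8.85% in SEVO 1 to 3. The groups did not overlap, and the means were 17.9% ± 4.19 in CTRL and 5.95% ± 2.86 in SEVO (n = 3 each). The exact binomial 95% intervals were wide, at 12.9% to 34.97% for CTRL 2 and 4.33% to 15.7% for SEVO 3. The share of Ubr7 did not overlap either, but was higher in SEVO. It was 7.81%, 11.29% and 10.27% in CTRL 1 to 3 and 17.65%, 14.06% and 18.58% in SEVO 1 to 3. The shares of Ubr1, Ubr2 and Ubr4 overlapped. All these shares use the reads on which Ubr3 was chosen and are a description. As shares of the other 4 genes alone, the groups overlapped for each gene, with Ubr1 at 26.4% ± 9.77 in CTRL and 23.1% ± 0.953 in SEVO, Ubr2 at 20.5% ± 5.13 and 21.6% ± 8.14, Ubr4 at 41.1% ± 6.57 and 37.3% ± 8.36, and Ubr7 at 12.01% ± 2.73 and 17.9% ± 3.03.

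**Figure D2:**
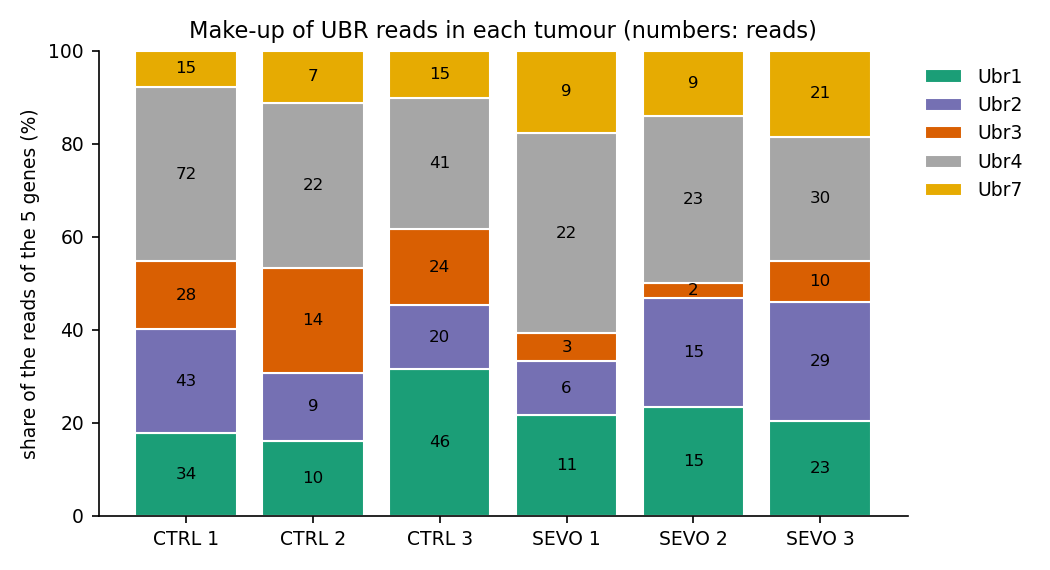
Make-up of the UBR reads in each of the 6 tumours, as the share of the reads of the 5 genes in percent (vertical axis), with the number of reads written in each segment. The Ubr3 segment is 14.6% to 22.6% in the CTRL tumours and 3.13% to 8.85% in the SEVO tumours.

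The ratio of Ubr3 to each relative per kilobase is also a description, since each ratio holds the Ubr3 reads on which the gene was chosen. Against Ubr4 it was 0.720, 1.18 and 1.084 in CTRL and 0.253, 0.161 and 0.617 in SEVO. Against Ubr1 it was 0.838, 1.42 and 0.531 in CTRL and 0.278, 0.136 and 0.442 in SEVO. The gap was narrow there, between CTRL 3 and SEVO 3. The ratios to Ubr2 and Ubr7 were 0.658 to 1.57 in CTRL and 0.135 to 0.505 in SEVO for Ubr2, and 0.537 to 0.671 and 0.0746 to 0.1598 for Ubr7.

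Reads were also counted on genes of smell and pheromone sensing. Over 1460 olfactory and vomeronasal receptor genes, the density was 1.30, 0.0755 and 0.588 reads per kilobase in CTRL 1 to 3 and 0.184, 0.210 and 0.396 in SEVO 1 to 3. CTRL 1 was highest, as it was for the summed family, and CTRL 2 was lowest, where for the family SEVO 1 was. At that density Ubr3 would have held 12.6, 0.733 and 5.72 reads in CTRL and 1.79, 2.04 and 3.85 reads in SEVO. The 2 reads of SEVO 2 were at this density, and those of SEVO 1 were 1.68 times above it. With the receptor density subtracted, Ubr3 was 18.7, 16.6 and 20.98 CPM in CTRL and 1.39, -0.05 and 6.71 CPM in SEVO, and the groups remained apart. With the same subtraction, Ubr4 was 40.0 ± 17.2 CPM in CTRL and 22.3 ± 2.29 CPM in SEVO and no longer overlapped (25.9 to 59.1 against 20.6 to 24.9 CPM), while Ubr1, Ubr2 and Ubr7 still did. After the same subtraction 4.16% of 7557 genes, and 6.39% of the 924 long protein-coding genes, were lower in every SEVO tumour than in every CTRL tumour. With the receptor density as a covariate in the edgeR fit, chosen after the data were seen, the log2 fold change was -0.56 for Ubr1, -0.11 for Ubr2, -2.03 for Ubr3 and -0.63 for Ubr4. What part these reads have in the differences was not tested.

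**Figure D3:**
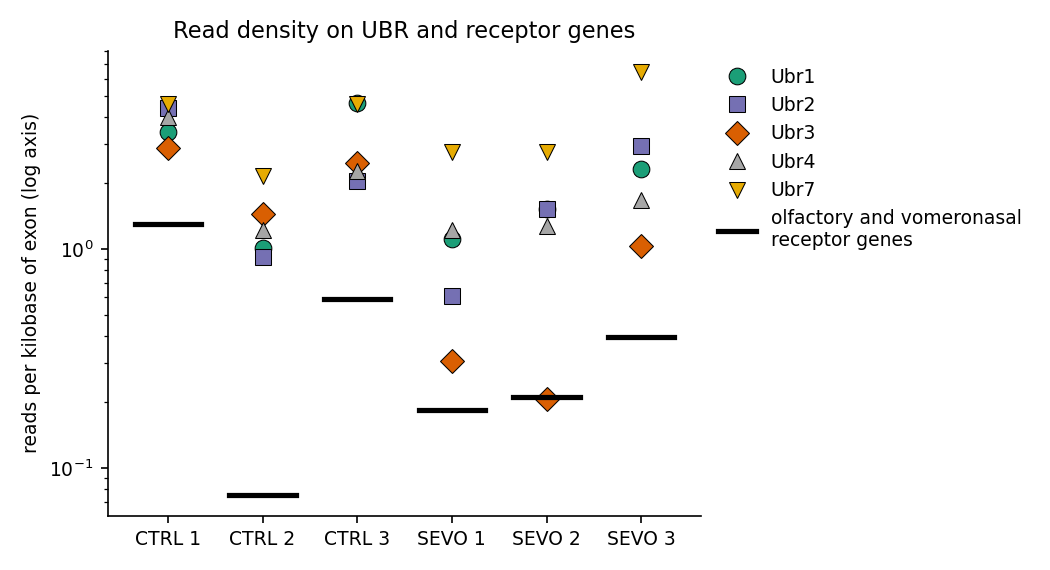
Reads per kilobase of exon (vertical axis, log scale) for the 5 UBR genes and, as black bars, for the olfactory and vomeronasal receptor genes as a whole, in each tumour. The receptor bars run from 0.0755 in CTRL 2 to 1.30 in CTRL 1, and Ubr3 meets the bar in SEVO 2, at 0.979 times its density.

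Markers of several other cell types were also highest in CTRL 1. Summed fibroblast markers were 31.4 to 149 CPM in CTRL and 15.0 to 61.1 CPM in SEVO, endothelial markers 11.3 to 111 and 17.2 to 50.2 CPM, macrophage markers 16.3 to 77.7 and 15.0 to 28.4 CPM, and T and NK cell markers 8.78 to 98.3 and 29.0 to 30.5 CPM. For each of these lists CTRL 1 was the highest tumour and, of the CTRL tumours, CTRL 2 the lowest, and 3 of 6, 3 of 5, 7 of 8 and 6 of 8 of their markers were at 0 in at least 1 tumour. Keratinocyte markers (1.25 to 47.4 CPM in CTRL, 4.60 to 12 in SEVO) and skeletal muscle markers (1.25 to 44.9 and 1.15 to 19.6 CPM) were also highest in CTRL 1, with 4 of 4 and 5 of 5 at 0 in some tumour. Monocyte and neutrophil markers summed to 2.51 to 42.5 CPM in CTRL and 4.29 to 9.81 in SEVO, and erythroid markers to 149 to 262 and 193 to 220 CPM, with 2 of 5 at 0 in some tumour. The keratinocyte markers held only 1 to 39 reads in all per tumour and the skeletal muscle markers 1 to 37. The density on the receptor genes was likewise highest in CTRL 1, at 1.30 reads per kilobase, and lowest in CTRL 2, at 0.0755. In tissue pieces, fewer cells of a type, less RNA per cell and fewer reads of the kind found on receptor genes cannot be told apart. The part of the cell make-up in the UBR values was not tested.

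Promoter windows are shown for the 3 members whose window holds no annotated exon, to set Ubr3 beside 2 of its relatives. Each window is the 150 bases before the RefSeq start of the gene on GRCm38.p6, 5′ to 3′ on the strand of the gene, and capitals mark matches to the motifs searched. The Ubr4 window lies inside the GENCODE span of the gene, whose first model starts further upstream.
Ubr3, chr2:69897096-69897245, plus strand: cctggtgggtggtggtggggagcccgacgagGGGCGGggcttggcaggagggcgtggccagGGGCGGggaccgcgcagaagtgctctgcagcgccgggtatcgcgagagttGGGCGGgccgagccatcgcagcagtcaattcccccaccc
Ubr1, chr2:120970716-120970865, minus strand: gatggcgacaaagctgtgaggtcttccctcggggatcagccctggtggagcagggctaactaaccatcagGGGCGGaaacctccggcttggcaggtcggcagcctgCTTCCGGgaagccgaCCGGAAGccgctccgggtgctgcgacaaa
Ubr4, chr4:139380509-139380658, plus strand: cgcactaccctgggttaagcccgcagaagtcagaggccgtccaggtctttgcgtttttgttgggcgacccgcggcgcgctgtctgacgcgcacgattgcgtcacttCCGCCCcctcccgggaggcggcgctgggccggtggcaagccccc

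All 3 windows are rich in G and C, at 73.3% for Ubr3, 64.7% for Ubr1 and 69.3% for Ubr4. The GC box GGGCGG, searched on both strands like the other motifs in the 250 bases before the start, was present in 3 copies for Ubr3, 1 for Ubr1, 1 for Ubr4, 3 for Ubr7 and 0 for Ubr2, and 32.9% of 27025 RefSeq windows of that length hold it. The ETS motif CCGGAAG, held by 7.05% of windows, occurred in 2 copies before Ubr1 and 1 before Ubr7. TGCGCA, part of the NRF1 site and held by 6.66% of windows, occurred in 2 copies before Ubr4, upstream of the bases shown, and CCAAT, held by 34.5%, in 2 copies before Ubr7. CACGTG and TATAAA, held by 6.05% and 13% of windows, were in none of the 5 windows. These matches describe the letters and are not sites shown to be bound.

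The pathway around the UBR ligases was followed through 5 lists of 32 genes, of which 18 were kept by the filter. None of these reached an adjusted p under 0.05 in edgeR, and neither did any of the 7561 genes tested. Of the 18, 0 had an unadjusted p under 0.05, beside 3.84% of all genes with a lower level in SEVO. There were 10 log2 fold changes below 0, beside 51.1% of all genes, and 8 above 0. Their median was -0.14, beside -0.02 over all genes. Upstream of the ligases, Ate1, the arginyl transferase that creates the basic N-degron, was counted 33, 10 and 25 times in CTRL and 10, 12 and 28 times in SEVO. Its means overlapped, at 27.1 ± 13.8 and 18.3 ± 10.6 CPM (n = 3 each), with a log2 fold change of -0.56 ± 0.55 (SE). Ntan1, the amidase that acts on amino-terminal asparagine, was counted 208, 591 and 357 times in CTRL and 657, 544 and 432 times in SEVO, with a log2 fold change of 0.37 ± 0.45 (SE). Metap2, which removes the initial methionine, was at -0.68 ± 0.48 (SE), so this list of 5 genes had 3 tested and a median of -0.56.

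Among the 5 partners of UBR proteins, 4 were kept, with a median log2 fold change of -0.01. Kcmf1, the partner of Ubr4, was counted 52, 14 and 14 times in CTRL and 8, 9 and 21 times in SEVO. CTRL 1 stood far above the other tumours and SEVO 3 came next, and the log2 fold change was -1.20 ± 0.62 (SE; edgeR, adjusted p = 0.742). Ube2a, the ubiquitin-conjugating enzyme that serves Ubr1 and Ubr2, held only 4 to 11 reads per tumour and was at 0.23 ± 0.68 (SE). Sqstm1, the autophagy receptor p62, was at 0.19 ± 0.32, and the F-box protein gene Fbxo11 at -0.22 ± 0.35 (SE).

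Of 11 genes of ligases of the other N-degron branches 5 were kept, with a median log2 fold change of -0.77. March6, a ligase of the endoplasmic reticulum that reads acetylated ends, was counted 35, 7 and 18 times in CTRL and 4, 7 and 20 times in SEVO (-1.07 ± 0.70, SE). Here too CTRL 1 was highest, and SEVO 3 lay above CTRL 2 and CTRL 3. The subunits of the CTLH ligase, which reads amino-terminal proline, were at -0.83 for Gid4, -0.77 for Wdr26, -0.07 for Rmnd5b and 0.13 for Ranbp9, with standard errors from 0.34 to 0.69. Their adjusted p ran from 0.742 to 0.939 in edgeR.

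Of the 8 genes of amino-terminal acetyltransferases, which cap new proteins, 5 were kept, with a median of 0.12. Naa20, the catalytic subunit of NatB, was counted 36, 31 and 36 times in CTRL and 46, 63 and 52 times in SEVO. Every SEVO tumour lay above every CTRL tumour, with 41.3 ± 2.41 CPM in CTRL against 59.1 ± 7.62 CPM in SEVO (n = 3 each). This was so for 1 of the 18 kept pathway genes, beside 4.17% of all genes tested. The log2 fold change of 0.52 ± 0.32 (SE) had an adjusted p of 0.742 in edgeR. The other kept genes of this list were at 0.34 for Naa35, 0.12 for Naa25, -0.43 for Naa60 and -0.59 for Naa15. Of the 3 substrates of the arginine branch listed, only Rgs16, a regulator of G protein signalling, was kept, at 0.06 ± 0.63 (SE).

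Other large ubiquitin ligases, with 5294 to 27464 exon bases, were set beside the UBR genes. Of these 18 genes 17 were kept, 8 of them with an exon length between those of Ubr3 and Ubr4. The log2 fold change was below 0 for 15 of the 17, beside 51.1% of all genes, and 4 had an unadjusted p under 0.05 and a lower level in SEVO, beside 3.84% of all genes and 12.3% of the long protein-coding genes, and their median log2 fold change was -0.88. The lowest 3 were the HECT ligase gene Ube3c at -1.39 ± 0.59, Zzef1 at -1.30 ± 0.61 and Ube3a, the gene of Angelman syndrome, at -1.26 ± 0.59 (SE). Ube3c was counted 22, 10 and 17 times in CTRL and 7, 6 and 7 times in SEVO. It was the only one of the 17 whose groups did not overlap, beside 4.39% of all genes and 5.74% of the long protein-coding genes lower in this way. The highest 3 were Rnf123 at 0.09, Rnf213 at 0.03 and Cul9 at -0.24. Among 924 protein-coding genes whose exon length lay between 9719 and 17997 bases, the range from Ubr3 to Ubr4, the median was -0.89, with 814 below 0. The values of -0.98 for Ubr1, -0.66 for Ubr2 and -0.97 for Ubr4 were near that median and that of Ubr3 was further down. With an offset for GC content and exon length in the fit, the values were -0.40 for Ubr1, -0.11 for Ubr2, -0.27 for Ubr4 and -1.75 for Ubr3. Downstream, 15 of 31 subunit genes of the 26S proteasome were kept, with 13 below 0 (51.1% of all genes), 3 not overlapping and lower in SEVO (4.39% of all genes), and a median of -0.46, from -1.52 for Psmd14 to 0.01 for Psmc3. Of these 15, 11 had no exon opposite another gene. Among the 2752 protein-coding genes of that kind, 2191 were below 0 and 207 were lower in SEVO without overlap. Among the 2479 protein-coding genes with such exons, 1259 were below 0 and 110 were lower without overlap.

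**Figure D4:**
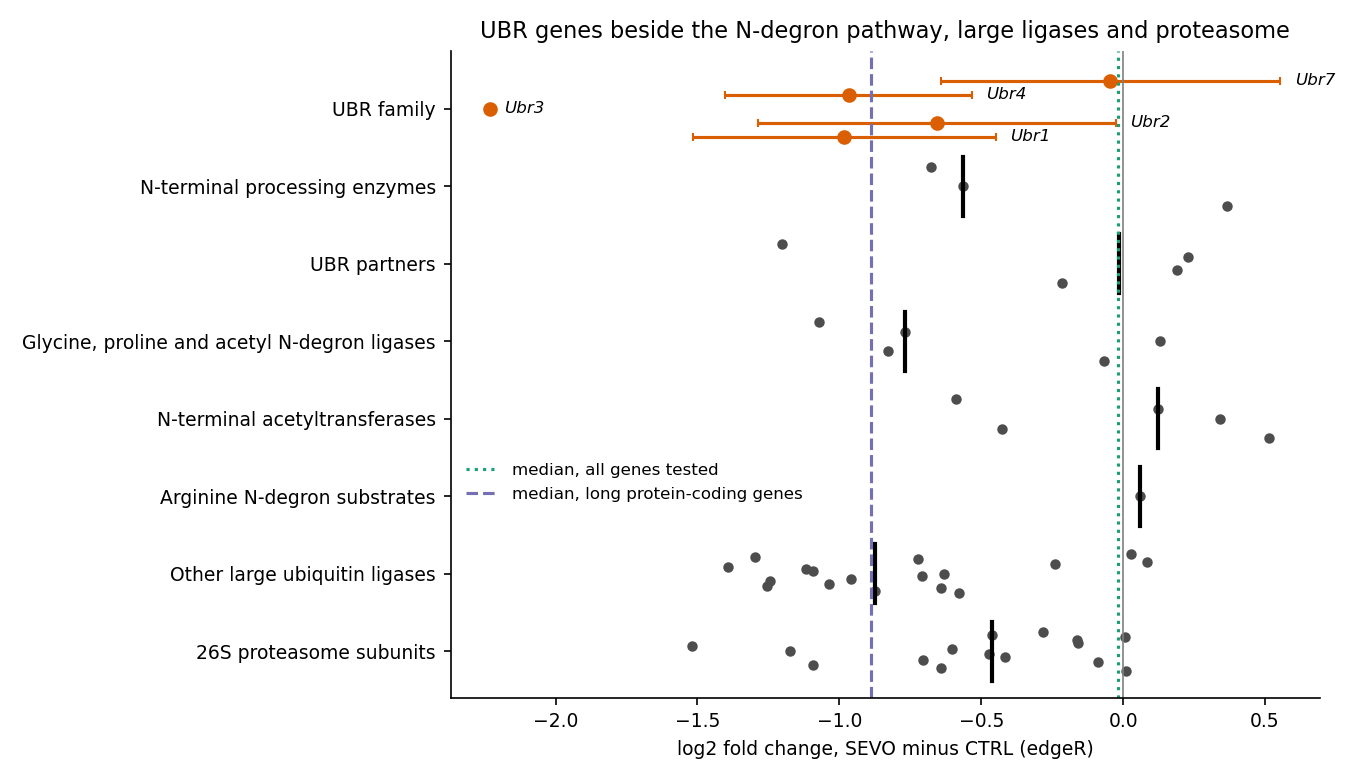
Log2 fold change, SEVO minus CTRL (horizontal axis, edgeR), of the 5 UBR genes (orange, with SE bars except for Ubr3, which was chosen by this value) and of the genes kept from 7 lists (grey points, black bars for medians). Ubr1, Ubr2 and Ubr4, at -0.98, -0.66 and -0.97, lie near the median of long protein-coding genes at -0.89 (dashed), Ubr7 lies near the median of all genes at -0.02 (dotted), and Ubr3 lies apart at -2.23.

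Overlap with other genes bears on some of these counts, because the strand setting of the counting was not given in the sources used here. The setting itself bears on the count of every gene, also on that of Ubr3, with 0 exon bases opposite another gene. Only 2.06% to 4.61% of the uniquely aligned reads fell on genes, and the part of the setting in that share was not tested. Of the exon bases of Ubr1, 308 of 9889 lie opposite AV039307, which was counted 50, 114 and 74 times in CTRL and 106, 136 and 61 times in SEVO. Of those of Ubr7, 212 of 3261 lie opposite Gm20604, with 13, 27 and 18 reads in CTRL and 31, 34 and 19 in SEVO. Both neighbours had their lowest count in CTRL 1, where the summed family was highest. Over protein-coding genes with exons opposite another gene the median log2 fold change was -0.01 (2479 genes), and over those without it was -0.60 (2752 genes). In the 5 pathway lists the 9 genes of the first kind had a median of 0.12 and the 9 of the second kind one of -0.68. Without a known strand setting, reads of opposite genes cannot be told apart, and the part of this in the UBR values was not tested.

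The genes nearest to Ubr3 in their profile over the tumours lay outside the family. As the distance, the root mean square over the 6 tumours of the differences in log2 CPM, each gene centred on its mean, was taken. The 5 nearest of 7560 genes were Arrdc3, an arrestin-domain adaptor, at 0.183, Sbno1 at 0.244, the deubiquitylase gene Usp25 at 0.255, Scaf1 at 0.260 and the RNA helicase gene Ddx52 at 0.277. Arrdc3 was counted 19, 9 and 19 times in CTRL and 3, 1 and 8 times in SEVO, which is the Ubr3 pattern of a low CTRL 2 and a high SEVO 3. Its log2 difference was -2.05, and those of the other 4 lay between -2.44 and -1.70, as the choice by likeness to Ubr3 sets. Of the family, Ubr4 came 939th at a distance of 0.738, Ubr1 1190th at 0.786 and Ubr2 1694th at 0.884.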

How the data were processed

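RNA from 6 tumours was sequenced. The authors deposited raw counts of reads on each gene from HTSeq 0.9.1 on GENCODE M17, after SortMeRNA, Trimmomatic 0.36 and alignment with STAR 2.6.0c to GRCm38, with no normalisation. The strand setting is not given in the sources used here. Names and positions came from GENCODE M21, which matched 53706 of 53801 identifiers. The UBR genes and all gene lists were chosen with earlier results of these data known. SEVO was compared with CTRL by edgeR 4.0.16 in R 4.3.3 (quasi-likelihood test, TMM, filterByExpr, 7561 genes, Benjamini-Hochberg adjustment), and standard errors were derived from the F statistic. The common dispersion was 0.158. Ubr7 did not pass the filter and was fitted by adding it to the genes kept. DESeq2 1.42.0, named by the study, was an alternative. The thresholds of the study were an unadjusted p under 0.02 and a fold change of at least 1.5. Named genes were the UBR genes, kept genes of the pathway lists, the 3 highest and 3 lowest large ligases, the extreme proteasome subunits and the 5 genes nearest to Ubr3. On simulated counts with 100 of 7561 genes changed 2-fold and 100 changed 4-fold, the median estimated fold was 1.98 and 3.84, of which 1% and 42% were called at an adjusted p under 0.05. Same-group libraries differed by a chi-square of 4.35 to 51.6 per gene, so none was a second reading of the same library. Gm10800 and Gm10801 were included, and separate libraries from the same tumour would not be excluded by this. Same-numbered tumours did not deviate together (r = -0.40, 0.32 and 0.08), so numbers were not used as pairs. Alternatives changed scaling, filter, test or offsets, or left out each tumour in turn.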

Additional observations from a re-analysis of the deposited data

How the results depend on the processing

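The log2 fold changes of Ubr1, Ubr3 and Ubr4 were below 0 under every alternative that gave them a value (17, 16 and 17). For Ubr3, chosen by its fall in these same tumours, this is a description only. In the main fit 88.1% of the 924 long protein-coding genes were also below 0. None of the 4 members other than Ubr3, which was not tested, reached an adjusted p under 0.05 under any alternative. The lowest in edgeR were 0.103 for Ubr1, 0.249 for Ubr2, 0.104 for Ubr4 and 0.701 for Ubr7. Leaving out each tumour in turn gave -3.13 (without SEVO 3) to -1.76 for Ubr3, -1.25 to -0.50 for Ubr1, -1.26 to 0.09 for Ubr2, -1.13 to -0.44 for Ubr4, -0.50 to 0.26 for Ubr7 and -1.15 (without SEVO 3) to -0.17 (without CTRL 1; -0.44 without SEVO 1) for the median without Ubr3. Ubr2 turned to 0.0867 without CTRL 1. Ubr7 turned to 0.28 with library size as the only scaling, 0.47 without the filter, 0.30 in DESeq2, 0.22 with the receptor density as a covariate, and 0.13, 0.15, 0.21 and 0.26 without CTRL 1, CTRL 3, SEVO 1 and SEVO 2. With an offset for GC content and exon length, the values were -0.40 for Ubr1, -0.11 for Ubr2, -1.75 for Ubr3 and -0.27 for Ubr4. The median of all genes moved from -0.02 to 0.22 with library size only, -0.23 with uniquely aligned reads, -0.38 without the filter and -0.55 in DESeq2. Genes past an adjusted p of 0.05 numbered 0, 1 with the replicate block, and 0 to 31 with 1 tumour left out (31 without CTRL 2). At the thresholds of the study 79 genes passed (8 higher, 71 lower), against 52 (2 and 50) with uniquely aligned reads, 60 (24 and 36) with library size only, 266 (100 and 166) without the filter, 49 (26 and 23) in DESeq2, 129 (6 and 123) with the replicate block, 190 (64 and 126) with the receptor covariate, 330 (40 and 290) at an unadjusted p under 0.05 alone, and 28, 1449, 32, 13, 14 and 479 without CTRL 1, CTRL 2, CTRL 3, SEVO 1, SEVO 2 and SEVO 3. With the replicate number as a block, although the numbers do not pair the tumours, Ubr1 was at -0.85 and Ubr4 at -0.84 (edgeR, adjusted p = 0.879 for both), Ubr2 at -0.55, Ubr3 at -2.38 and Ubr7 at -0.08, and no call on the 4 tested members changed. With at least 10 reads required in every tumour, Ubr2, Ubr3 and Ubr7 gave no value. The cause of these shifts was not tested, and Ubr3, with 2 to 28 reads per tumour, is limited by depth.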

Other observations

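Of the 14 pathway genes too low for the filter, 11 overlapped between the groups and 3 were lower in every SEVO tumour. Of the 7561 genes kept by the filter, 4.39% were lower in this way, and no share was taken over the genes below it. Ado, the thiol dioxygenase that oxidises amino-terminal cysteine, was at 12.5 ± 5.198 CPM in CTRL and 6.62 ± 1.06 CPM in SEVO (mean ± SD, n = 3). Naa50 was at 14.9 ± 5.01 and 7.37 ± 0.838 CPM and Naa30 at 10.02 ± 6.23 and 2.91 ± 1.63 CPM. Naa20, another acetyltransferase gene, was higher in every SEVO tumour, as were 4.17% of the genes kept. Ado, Naa50 and Naa30 were named after their values were seen and were not tested.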
